A study of Danio rerio with 17 samples.

Results

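Gene expression was compared between pools of whole zebrafish embryos whose yolk had been injected with lipid, called FFA pools here, and control pools. The 6 FFA and 5 control pools were chosen by the titles of their libraries and make up 11 of the 17 libraries of the series. The other 6 libraries came from embryos kept in 3% glucose and are given below as a second reference for a few genes and lists. They also entered the fit behind every test, where they share the estimate of the spread. All embryos were of the AB line and were frozen at 72 hours post fertilization (hpf), with 10 embryos in each pool. The FFA embryos had received a BODIPY-labelled fluorescent lipid in canola oil (1 mg/ml) in the yolk sac at 24 hpf. No treatment is named for the control embryos. The sources used here do not give whether they were injected, so an effect of the lipid and one of the injection itself cannot be told apart. Pools keep the replicate numbers of their titles, which are 1 to 6 for FFA and 1, 2, 3, 4 and 6 for control.

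At this age a zebrafish embryo still lives on its yolk. The yolk syncytial layer, a multinucleate sheet around the yolk, breaks down yolk lipid and packs it into lipoproteins, which carry fatty acids and cholesterol to the tissues. Incoming fatty acids are activated by acyl-CoA synthetases and are then burned in mitochondria, built into membranes or kept as triglyceride in lipid droplets coated by perilipins. Injury and protein damage call on other genes, among them the HSP70 chaperones, which hold unfolded proteins, and the AP-1 transcription factors of the Fos and Jun families, which are switched on within minutes of stress or wounding.

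Titles and treatment tags disagree for 11 of the 17 libraries. Of the 6 FFA libraries 5 are tagged glucose and 1, replicate 1, is tagged FFA, while all 5 control libraries are tagged control. All 6 glucose libraries carry another tag (5 FFA and 1 control). Titles were used throughout. Counts assigned to genes lay between 11655819 and 14564811 in control and between 11336216 and 15410996 in FFA. In a principal component analysis of the 11 libraries over 1000 genes, the first component (57.6% of the variance) did not part the groups. On it controls 1 and 2 stood apart from the other controls, and they also held the most photoreceptor RNA, with a summed level of 12040 and 9107 CPM (counts scaled to library size) over the 50 photoreceptor genes against 2469 to 3533 in controls 3, 4 and 6 and 3352 to 8010 in FFA. On the second component (17.9%) the 5 controls lay between -12.18 and -5.418 and the 6 FFA pools between 5.792 and 10.45, with no overlap. All 15 measured markers of larval organs were above 0 in all 11 libraries.

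The comparison asked which genes differ after lipid was put into the yolk. Of 13539 genes tested, 246 passed an adjusted p of 0.05 and are called changed (1.82%), with 149 higher in FFA (1.1%) and 97 lower (0.716%). Of these, 71 changed at least 2-fold (0.524%), 46 upwards (0.340%) and 25 downwards (0.185%). The FFA and control pools did not overlap for 311 genes (2.30%), 183 with FFA higher (1.35%) and 128 with FFA lower (0.945%). Of the 246 called genes 191 did not overlap, and the largest changes named below were also picked by it. Lack of overlap in a called gene therefore adds little to its call. The median log2 fold change of all genes tested was -0.00883. At an unadjusted p under 0.05 there were 1379 genes. The test was edgeR's quasi-likelihood test with Benjamini-Hochberg adjustment over all genes, and every adjusted p below comes from it. Whether pools came from separate clutches is not stated, so a p measures the spread between these pools, which may be technical. The pools are bulk samples, so fewer cells of a type and less RNA per cell cannot be told apart. Without controls 1 and 2 the calls were 93 higher and 133 lower, a share of higher calls of 41.2% against 60.6%. Leaving out 1 library in turn gave 157 to 254 calls, and 131 of the 246 genes were called in all 11 of these fits.

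**Figure D1:**
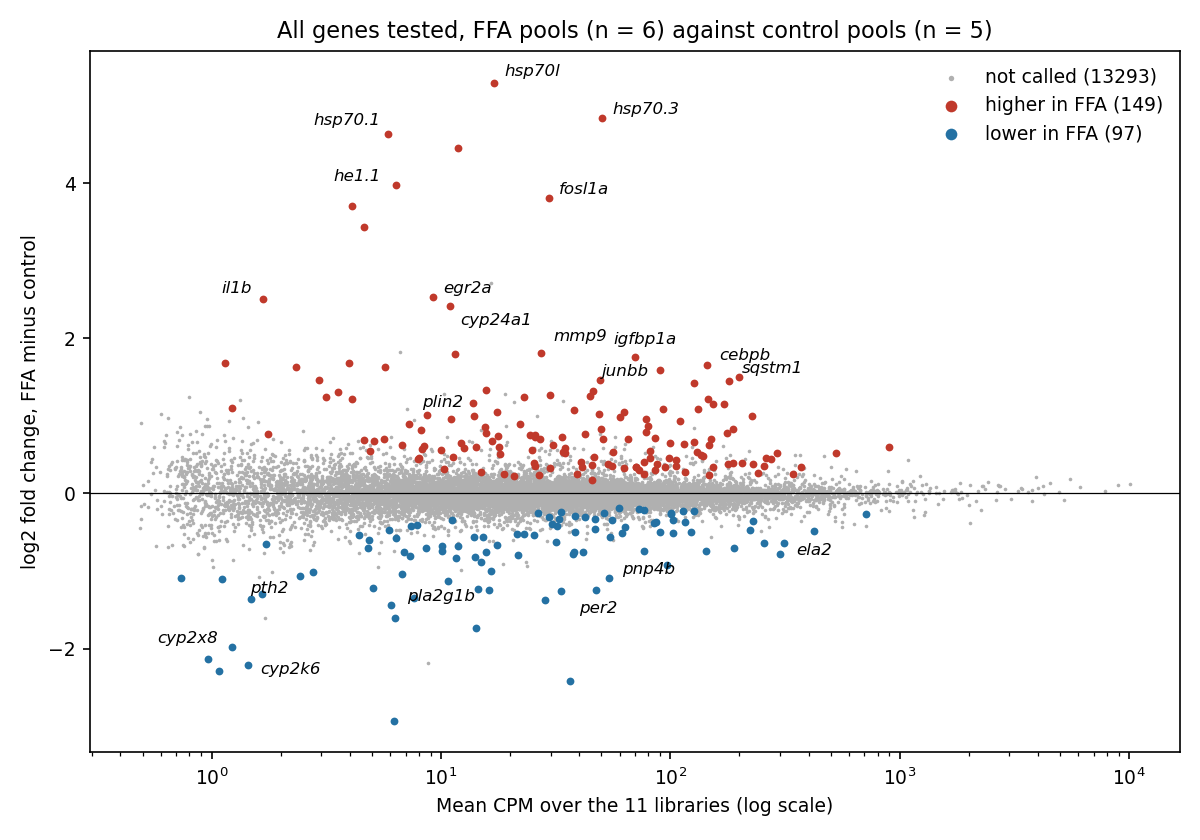
Each point is 1 of the 13539 genes tested, with its mean CPM over the 5 control and 6 FFA libraries (log scale) on the horizontal axis and its log2 fold change, FFA minus control, on the vertical axis. The 149 genes called higher are red and the 97 called lower are blue; 4 hsp70 genes lie at the top, between 4.45 and 5.30.

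The largest rises belonged to the inducible HSP70 chaperones. The genes hsp70.1, hsp70.2 and hsp70.3 neighbour each other on chromosome 3 of the RefSeq assembly GRCz12tu, and hsp70l lies on chromosome 8. How reads shared between such copies were counted is not known, so single genes are uncertain. The level of hsp70.3 was 3.23, 2.78, 2.62, 3.2 and 3.68 CPM in controls 1, 2, 3, 4 and 6. In FFA pools 1 to 6 it was 198, 25.6, 31.9, 71.4, 27.6 and 185 CPM. Every FFA pool lay above every control, but FFA 1 and 6 stood far above FFA 2, 3 and 5. The log2 fold change was 4.84 ± 0.589 (SE, adjusted p = 0.000245). The hsp70l level was 0.943, 0.662, 0.436, 0.547 and 1.16 CPM in the controls, and in FFA the lowest pool was at 5.2, the median at 25.2 and the highest at 66.3 CPM. Again the groups did not overlap and FFA 1, 4 and 6 were the high pools, (5.30 ± 0.724 on the log2 scale, adjusted p = 0.000616). With limma-voom the adjusted p of hsp70l was 0.0814. The hsp70.1 and hsp70.2 genes rose by 4.64 ± 0.687 and 4.45 ± 0.598 on the log2 scale (adjusted p = 0.00123 and 0.000521).

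Of the 49 heat shock and chaperone genes tested, 9 were called higher and 1 lower, against 1.1% and 0.716% of all genes, with a list median of 0.034 on the log2 scale. The inducible cytosolic HSP90 gene hsp90aa1.2 was at 115, 95.5, 73.5, 66.1 and 72.3 CPM in the controls. In FFA its lowest pool was at 136, the median at 165 and the highest at 286 CPM. FFA 6 and 1 were the highest pools and no FFA pool overlapped a control (log2 fold change 1.21 ± 0.216, adjusted p = 0.00574). The J-domain genes dnaja1 (0.36) and dnajb1a (0.26), co-chaperones that deliver clients to HSP70, were also called higher. Both calls ended with the replicate number as a block (adjusted p = 0.0635 and 0.0513). The call of another J-domain gene, dnajb1b (0.76, adjusted p = 0.0187), ended without control 1 (0.0509) or control 2 (0.0570), and with the 2 groups alone (0.0924). The call of the collagen chaperone gene serpinh1b (0.30, adjusted p = 0.0465) ended without any 1 of control 1, 2 or 3 or FFA 1, 2, 3 or 5 (0.0671 to 0.137). The small heat shock protein gene hspb9 fell (-0.79 ± 0.151 on the log2 scale, adjusted p = 0.00930), with FFA 2 at 23.7 CPM inside the control range of 22.0 to 36.8 CPM. The constitutive genes hspa8, hsp90ab1 and hsp90b1 lay at -0.00, 0.02 and -0.04 and were not called.

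The gene of the autophagy receptor sqstm1, which binds ubiquitin-tagged protein aggregates, was highest in FFA 1 and 6, as was hsp70.3. It was at 76.0, 81.0, 100, 111 and 94.4 CPM in the controls and at 465, 144, 251, 175, 151 and 333 CPM in FFA 1 to 6. The groups did not overlap (log2 fold change 1.45 ± 0.253, adjusted p = 0.00506). The deubiquitinase gene uchl1 rose by 0.71 ± 0.113 on the log2 scale (adjusted p = 0.00254), and the HSP70 nucleotide exchange factor gene hspbp1 rose by 0.74 ± 0.134 (adjusted p = 0.00654, and 0.0594 without controls 1 and 2). The proteasome list had 0 of 43 genes called, where 1.82% of all genes were called, and a median of -0.058.

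Of 34 AP-1 and immediate early genes tested, 18 were called higher and 0 lower, against 1.1% and 0.716% of all genes. The median log2 fold change was 0.83, and 32 of 34 were above 0, as were 6336 of all 13539 genes. The summed level of the list was 1904 to 2445 CPM in the controls, 2407 to 3916 CPM in FFA and 1709 to 2549 CPM in glucose. FFA 1, at 2407 CPM, was the only FFA pool within the control range. Without controls 1 and 2, 10 of the 34 were called higher and the median was 0.80, and without 1 library in turn 12 to 20 were called. With the replicate number as a block 9 were called higher, and the median was 0.84. Members were chosen with earlier results of these data known, so these counts describe the list.

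The Fos family gene fosl1a, a partner in AP-1 dimers, was at 3.57, 2.85, 3.05, 4.06 and 4.70 CPM in the controls. In FFA it ran from 16.9 CPM in FFA 1 over a median of 43.5 to 92.1 CPM in FFA 2. No FFA pool overlapped a control (log2 fold change 3.80 ± 0.487, adjusted p = 0.000321). The Jun family gene junbb was at 38.9, 55.0, 37.4, 43.4 and 39.1 CPM in the controls, and its lowest, median and highest FFA pools were at 54.0, 140 and 162 CPM. FFA 1 was the lowest pool and fell just below control 2, while the other 5 FFA pools were at 122 CPM or more (1.59 ± 0.227, adjusted p = 0.000880). The stress-induced factor gene atf3 was at 24.8, 23.0, 23.0, 30.6 and 25.2 CPM in the controls and at 50.5, 60.3 and 80.2 CPM in its lowest, median and highest FFA pools. These groups did not overlap (1.26 ± 0.139, adjusted p = 0.000107), and FFA 4 was the high pool.

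The C/EBP factor gene cebpb, which acts in acute inflammation and in fat cell formation, was at 59.8 to 77.6 CPM in the 5 controls. In FFA it had its lowest pool at 112, its median at 208 and its highest at 282 CPM, all above the controls (1.66 ± 0.223, adjusted p = 0.000521). The zinc finger factor gene egr2a rose by 2.53 ± 0.535 (adjusted p = 0.0184), with FFA 1 at 3.87 CPM beside a highest control of 3.31 CPM. Its call ended without control 6 (adjusted p = 0.0653) and without controls 1 and 2 (0.0735). The antiproliferative gene btg2 rose by 1.5 ± 0.271 (adjusted p = 0.00648) and the MAP kinase phosphatase gene dusp1, a feedback inhibitor, by 1.16 ± 0.188 (adjusted p = 0.00283). In both, FFA 1 (116 and 120 CPM) lay inside the control range and the other FFA pools at 201 CPM or more, above it. Called at smaller sizes were fosl2 (0.88), jun (0.27), nr4a1 (1.08), cebpd (1.00), klf6a (0.40) and dusp6 (0.26). Without controls 1 and 2 the calls of jun (0.0955), nr4a1 (0.0574), cebpd (0.0617), klf6a (0.0647) and dusp6 (0.0860) ended. The dusp6 call also ended without control 2 or control 6 (0.0671 and 0.0750). The calls of egr1 (1.09, adjusted p = 0.0449) and fosab (1.43, adjusted p = 0.0278) each ended in 8 of the 11 fits that left out a library (0.0685 to 0.133 for egr1 and 0.0516 to 0.0868 for fosab). These were control 2, 3, 4 or 6 for egr1, control 1, 2, 3 or 6 for fosab, and FFA 2, 3, 4 or 5 for both. In FFA 1 egr1 was at 40.4 CPM, under every control (46.8 to 76.4 CPM).

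**Figure D2:**
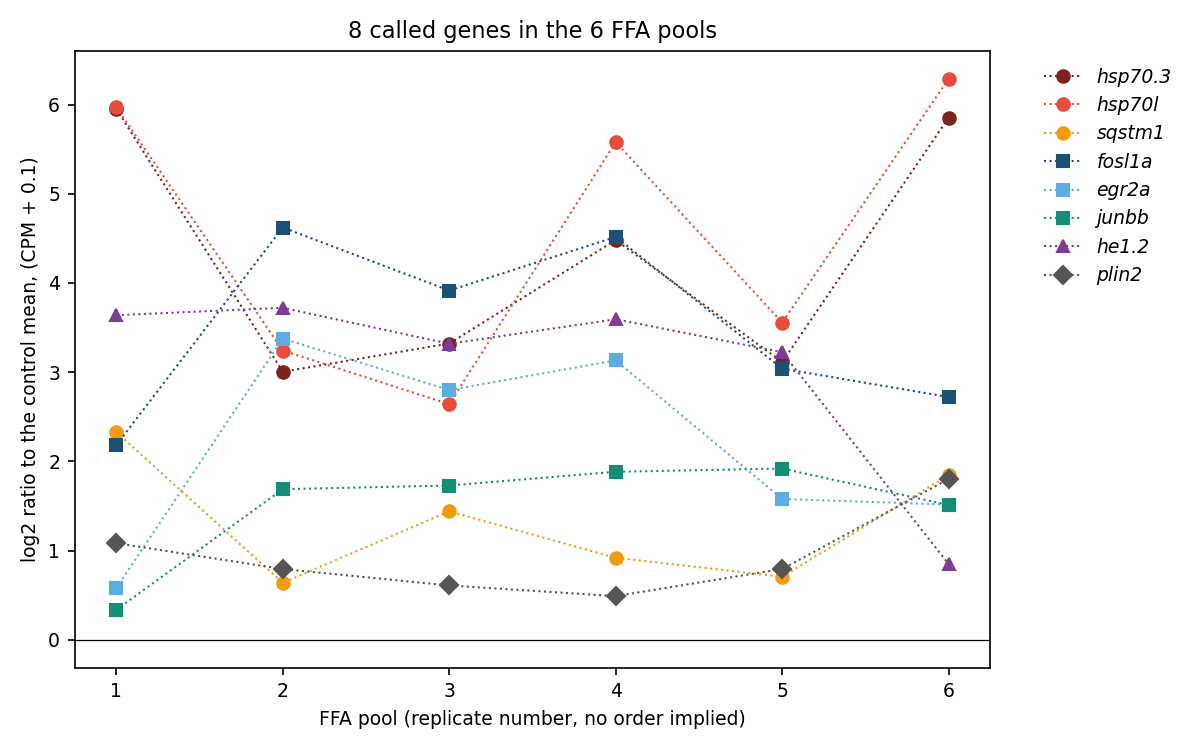
The log2 ratio of each FFA pool to the control mean, computed on CPM + 0.1, is shown for 8 called genes in the 6 FFA pools; dotted lines join values of a gene and imply no order. The hsp70.3, hsp70l and sqstm1 genes are high in FFA 1 and 6, while fosl1a, egr2a and junbb are lowest in FFA 1; he1.2 is lowest and plin2 highest in FFA 6.

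Of 27 cytokine and chemokine genes tested, 4 were called higher and 1 lower, or 18.5% against 1.82% of all genes, with a median of 0.15. The interleukin gene il1b, a first signal of inflammation, was at 0.269, 0.795, 0.611, 0.234 and 0.408 CPM in the controls. Its lowest, median and highest FFA pools were at 1.46, 2.51 and 4.41 CPM. The groups did not overlap, although levels were low in both (2.51 ± 0.403, adjusted p = 0.00262). The chemokine gene cxcl18b, which attracts neutrophils in zebrafish, was at 1.59 to 2.09 CPM in the controls and at 2.19, 4.14 and 6.07 CPM in its lowest, median and highest FFA pools (1.25 ± 0.234, adjusted p = 0.00805). Its call ended with the replicate number as a block (0.0706). The prostaglandin synthase gene ptgs2a rose by 0.96 ± 0.207 (adjusted p = 0.0192), a call that ended without control 1, 2 or 6 or FFA 2 or 4 (0.0511 to 0.0643). In the other direction, the chemokine gene ccl19b was at 8.48, 8.28, 14.4, 12.7 and 13.3 CPM in the controls and between 3.88 and 5.15 CPM in all 6 FFA pools (-1.35 ± 0.168, adjusted p = 0.000292). The interferon response list had 0 of 19 genes called, against 1.82% of all genes, and a median of 0.16.

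Matrix-cutting proteases gave 2 of the rises. The gelatinase gene mmp9 was at 10.0, 9.47, 11.5, 15.2 and 11.4 CPM in the controls and at 29.3, 40.6 and 50.8 CPM in its lowest, median and highest FFA pools. The collagenase gene mmp13a was at 4.24, 5.96, 4.62, 5.94 and 3.74 CPM in the controls and at 12.7, 16.4 and 22.3 CPM in the corresponding FFA pools. Neither gene overlapped between groups, with log2 fold changes of 1.81 ± 0.177 and 1.79 ± 0.205 (adjusted p = 4.46e-05 and 0.000132). Of 16 matrix metalloproteinase and inhibitor genes tested, 4 were called higher and 0 lower, against 1.1% and 0.716% of all genes. The median was 0.092 and 11 of 16 were above 0, or 68.8% against 46.8% of all genes. The 4 include the membrane-bound protease gene adam8a (0.59 ± 0.120, adjusted p = 0.0148). The adam8a call ended without control 6 (0.0512) and without controls 1 and 2 (0.0853).

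Of 48 epidermal wound and repair genes 3 were called higher and 0 lower, or 6.25% against 1.82% of all genes, with a median of -0.043. The EGF receptor ligand gene hbegfa was at 33.9 to 47.8 CPM in the controls and at 48.8, 86.3 and 101 CPM in its lowest, median and highest FFA pools, with FFA 1 just above control 4 (1.06 ± 0.176, adjusted p = 0.00345). The matricellular genes ctgfa (0.62 ± 0.0850, adjusted p = 0.000616) and cyr61 (0.99 ± 0.177, adjusted p = 0.00608), known targets of the YAP pathway, did not overlap between groups. The tissue factor gene f3b, which starts blood clotting, rose by 1.05 ± 0.173 (adjusted p = 0.00298), from 9.47 to 12.8 CPM in the controls to 18.5 to 28.9 CPM in FFA.

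Macrophage and neutrophil markers had 3 of 40 genes called higher and 1 lower, a median of 0.29 and 34 genes above 0. That is 10.0% called against 1.82% of all genes, and 85.0% above 0 against 46.8%. The summed level of this list was 1518 to 1740 CPM in FFA, inside the control range of 1221 to 1856 CPM. Without controls 1 and 2, 0 of the list were called higher and 1 lower. The cathepsin gene ctss2.1 (0.96 ± 0.176, adjusted p = 0.00693, and 0.0575 without controls 1 and 2) and the lysozyme gene lyz (0.53 ± 0.113, adjusted p = 0.0184, and 0.0528 without control 1) were called higher. The perforin-like gene mpeg1.2 was called lower (-0.75 ± 0.183, adjusted p = 0.0449). Its call ended without control 2, 3 or 4 or FFA 2, 3, 4 or 5 (0.0527 to 0.115). The medium-chain fatty acid receptor gene gpr84, found on phagocytes in mammals, was at 0.523 to 0.938 CPM in the controls and 1.17 to 2.17 CPM in FFA (1.1 ± 0.201, adjusted p = 0.00654). The mannose receptor gene mrc1b, which marks scavenger endothelium in zebrafish, was at 24.8, 22.7, 26.5, 26.1 and 23.4 CPM in the controls. All 6 FFA pools lay above these, between 35.3 and 45.8 CPM (0.73 ± 0.0743, adjusted p = 4.46e-05). Of 42 scavenger and lymphatic endothelium genes mrc1b was the 1 called higher, and 3 were called lower, or 9.52% against 1.82% of all genes. Summed over this list, the level went the other way from mrc1b. It was 1797 to 1870 CPM in the controls and 1624 to 1787 CPM in FFA, with no overlap, and 1495 to 1633 CPM in glucose.

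**Figure D3:**
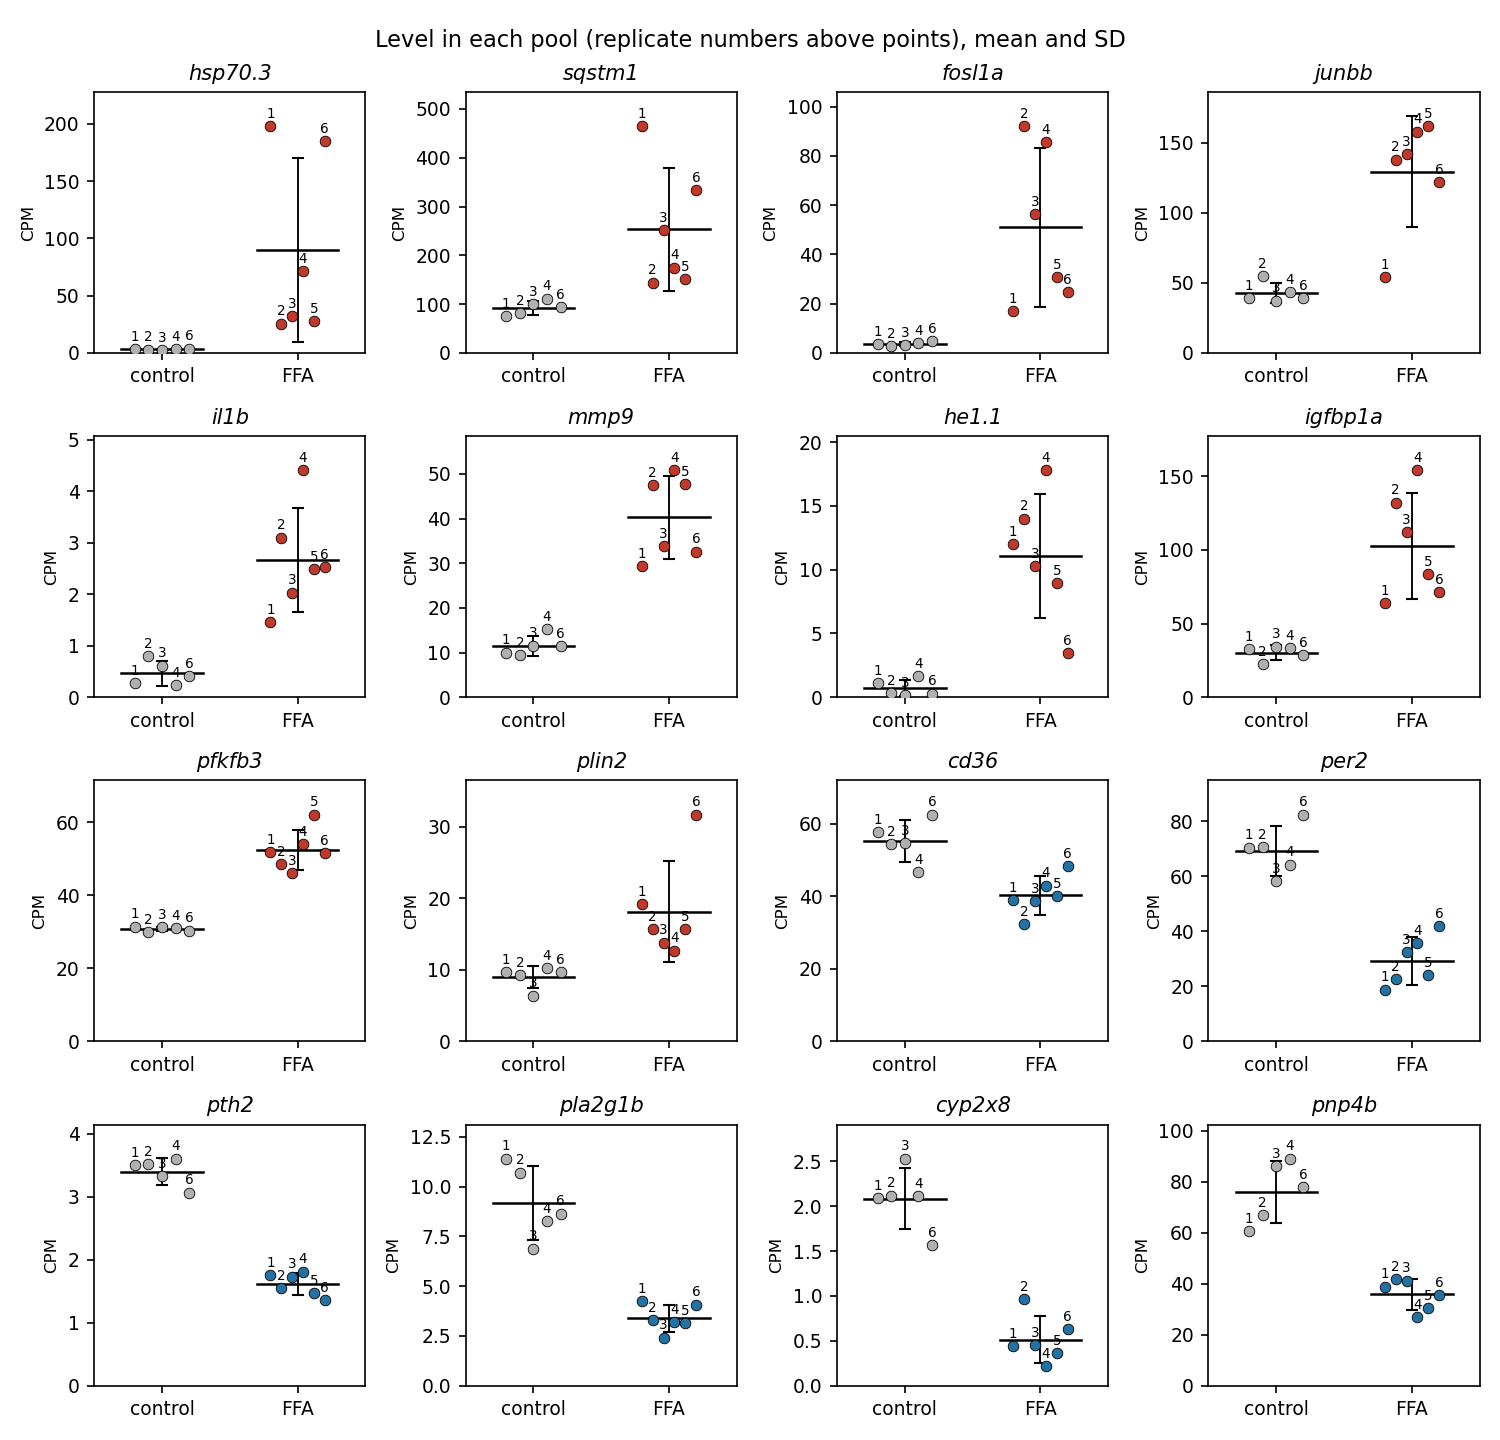
The level of 16 called genes in CPM (axes start at 0) is shown for each control pool (grey) and FFA pool (red where called higher, blue where called lower), with the replicate number above each point, the mean as a bar and the SD as a whisker. The groups do not overlap for hsp70.3, mmp9, pfkfb3, per2 or pth2, whereas junbb overlaps through FFA 1 and cd36 through FFA 6.

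Some genes of stress translation and amino acid supply were called higher, several of them in calls that hung on single libraries. Of 48 endoplasmic reticulum stress and ATF4 genes, 7 were called higher and 0 lower, or 14.6% against 1.82% of all genes, with a median of 0.033. Without 1 library in turn 3 to 7 were called. The largest log2 fold change in the list, 1.66, was that of cebpb, which is described above. The pseudokinase gene trib3, an ATF4 target, was at 42.0, 44.2, 45.3, 46.7 and 47.4 CPM in the controls and between 56.7 and 73.9 CPM in FFA (0.54 ± 0.0724, adjusted p = 0.000521). The gene ppp1r15b, which restores translation by dephosphorylating eIF2alpha, rose by 0.68 ± 0.115 (adjusted p = 0.00425). The serine synthesis gene phgdh (0.38, adjusted p = 0.0236) lost its call without control 1, 2 or 6 (0.0514 to 0.0757). The call of psat1 ended without control 1, 2, 3 or 6 or FFA 2 or 4 (0.0543 to 0.0794). That of ppp1r15a ended without control 2, 3, 4 or 6 or FFA 2, 3, 4 or 5 (0.0543 to 0.0999). The proapoptotic factor gene ddit3 (0.35, adjusted p = 0.0466) lost its call in 8 of the 11 fits that left out a library (control 2, 3, 4 or 6 or FFA 2, 3, 4 or 5, with adjusted p from 0.0679 to 0.111).

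Both igfbp1 genes, pfkfb3 and sgk1 rose in FFA. The gene igfbp1a, a secreted protein that binds insulin-like growth factors and rises on fasting and low oxygen in fish, was at 32.8, 22.3, 34.3, 33.4 and 28.7 CPM in the controls. In FFA its lowest, median and highest pools were at 63.9, 97.4 and 154 CPM. Its paralogue igfbp1b was at 0.875 to 1.36 CPM in the controls and at 2.35 to 4.63 CPM in FFA. Neither overlapped between groups, with log2 fold changes of 1.76 ± 0.274 and 1.63 ± 0.206 (adjusted p = 0.00198 and 0.000321). In glucose, igfbp1a was at 13.9 to 38.5 CPM and FFA was higher than glucose by 2.09 on the log2 scale (adjusted p = 5.81e-05, in a comparison that called 17.0% of all genes, 7.98% higher and 9.0% lower in FFA). The glycolysis regulator gene pfkfb3 was at 31.4, 29.9, 31.2, 31.0 and 30.3 CPM in the controls and at 46.0, 51.7 and 62.1 CPM in its lowest, median and highest FFA pools. Every FFA pool lay above every control (0.77 ± 0.0712, adjusted p = 4.46e-05). The serum and glucocorticoid kinase gene sgk1 rose by 0.83 ± 0.104 (adjusted p = 0.000299). The arrestin genes txnipa (0.53 ± 0.0869, adjusted p = 0.00305), arrdc3a (0.39 ± 0.0706, adjusted p = 0.00648) and arrdc3b (0.78 ± 0.0832, adjusted p = 7.47e-05), whose proteins remove transporters or receptors from the cell surface, rose with no overlap between groups.

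Of the 45 insulin and IGF signalling genes, igfbp1a, igfbp1b and trib3 were the 3 called, all higher (6.67% against 1.82% of all genes). Of the 32 hypoxia-inducible genes 4 were called higher and 0 lower, namely both igfbp1 genes, pfkfb3 and the prolyl hydroxylase gene egln3 (0.55 ± 0.118, adjusted p = 0.0196), whose call ended without control 1 or 3 (0.0538 to 0.0587) and with the 2 groups alone (0.0668). The hypoxia list thus had 12.5% called against 1.82% of all genes. Its median was 0.031 on the log2 scale, with 17 of 32 genes above 0 (53.1% against 46.8% of all genes). Glycolysis had 1 gene called higher (pfkfb3) and 2 lower of 41, or 7.32% against 1.82% of all genes. The gluconeogenesis and glycogen list had 0 of 39 called and the islet list 0 of 25, against 1.82% of all genes. The insulin gene ins lay between 24.0 and 33.5 CPM in the controls and between 21.4 and 31.4 CPM in FFA (-0.04, adjusted p = 0.981). The gluconeogenic gene pck1 was at -0.26 (adjusted p = 0.471). A p that misses the threshold does not show that levels were equal.

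Genes that handle fat were called in both directions. Of 44 fatty acid uptake and lipid droplet genes 4 were called higher and 2 lower, or 13.6% against 1.82% of all genes (median 0.025). Of 36 elongase, desaturase and lipogenesis genes 3 were called higher and 0 lower, or 8.33%; of 36 apolipoprotein and lipoprotein assembly genes and of 52 fatty acid oxidation, ketone and PPAR genes 0 were called. Within fatty acid oxidation 13 of 52 genes were above 0 (25.0% against 46.8% of all genes) and the median was -0.057. Such a low share was not particular to this list. It was 15.3% for mitochondrial respiration, 18.6% for the proteasome, 22.0% for neuron genes and 22.4% for cell cycle genes. Without 1 library in turn, 1 to 4 of the droplet genes were called higher and 0 to 2 lower. In a fit of control and FFA alone 0 were called higher and 2 lower.

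The perilipin gene plin2, whose protein coats lipid droplets, was at 9.63, 9.21, 6.37, 10.2 and 9.67 CPM in the controls. In FFA its lowest pool was at 12.7, the median at 15.7 and the highest, FFA 6, at 31.7 CPM. All FFA pools lay above all controls (1.00 ± 0.195, adjusted p = 0.0102), and the log2 fold change was 0.77 to 1.08 in the 11 fits without 1 library. In a fit of the control and FFA libraries alone the adjusted p was 0.0597. The gene cd36, a membrane protein that takes up long-chain fatty acids, went the other way. It was at 57.6, 54.3, 54.7, 46.7 and 62.5 CPM in the controls and at 32.3, 39.5 and 48.3 CPM in its lowest, median and highest FFA pools. FFA 6 lay above control 4, and the other 5 FFA pools lay below all controls (-0.46 ± 0.0967, adjusted p = 0.0179). The cd36 call ended without control 6 (0.0653) and without controls 1 and 2 (0.0690).

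The acyl-CoA synthetase gene acsl4a, which prefers arachidonic acid in mammals, rose by 0.35 ± 0.0742 (adjusted p = 0.0179), a call that ended without control 3 (0.0528) and with the 2 groups alone (0.0935). The elongase gene elovl7b was at 20.1, 20.1, 24.3, 34.9 and 26.1 CPM in the controls and between 38.3 and 110 CPM in FFA (1.46 ± 0.280, adjusted p = 0.00940, and 0.0721 without controls 1 and 2). The sterol-sensing gene insig1 rose by 0.47 ± 0.0994 (adjusted p = 0.0187), and its call ended without control 3 or 6 or FFA 4 (0.0513 to 0.0584). The droplet fusion gene cidec was at 4.24 to 6.46 CPM in the controls and 6.03 to 17.4 CPM in FFA (1.01 ± 0.241, adjusted p = 0.0392), with FFA 3 inside the control range. Its call ended in 9 of the 11 fits that left out a library, those without any control or FFA 1, 2, 5 or 6 (0.0617 to 0.102). The lysophospholipid transporter gene mfsd2ab was at 81.7 to 95.4 CPM in the controls and 97.5 to 187 CPM in FFA (0.64 ± 0.133, adjusted p = 0.0153, and 0.0588 without controls 1 and 2). With the 2 groups alone the calls of insig1 (0.0811), cidec (0.0692) and mfsd2ab (0.0634) ended as well.

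Several lipid genes often used as readouts did not pass. The lipase inhibitor gene angptl4, a PPAR target, was at 158, 164, 167, 188 and 152 CPM in the controls and 181 to 206 CPM in FFA (0.24 ± 0.0647, adjusted p = 0.0852), so that FFA 4 alone lay within the control range. The carnitine palmitoyltransferase genes cpt1b and cpt1aa were at -0.14 ± 0.0745 and 0.07 ± 0.0438 (adjusted p = 0.592 and 0.691). The desaturase gene scd was at 0.27 ± 0.262, the lipoprotein lipase gene lpl at 0.15 ± 0.0853 and the lipoprotein assembly gene mttp at 0.10 ± 0.0853, and none was called. The apolipoprotein B gene apobb.1, made by the yolk syncytial layer, was at 6810 to 9230 CPM in the controls and 7420 to 9030 CPM in FFA (0.03 ± 0.107). The sterol synthesis gene hmgcs1 (-0.05 ± 0.145) and the lipoprotein receptor gene ldlra (0.03 ± 0.103) were not called either. The synthase gene fasn was not found under that symbol among the counted genes and could not be tested.

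**Figure D4:**
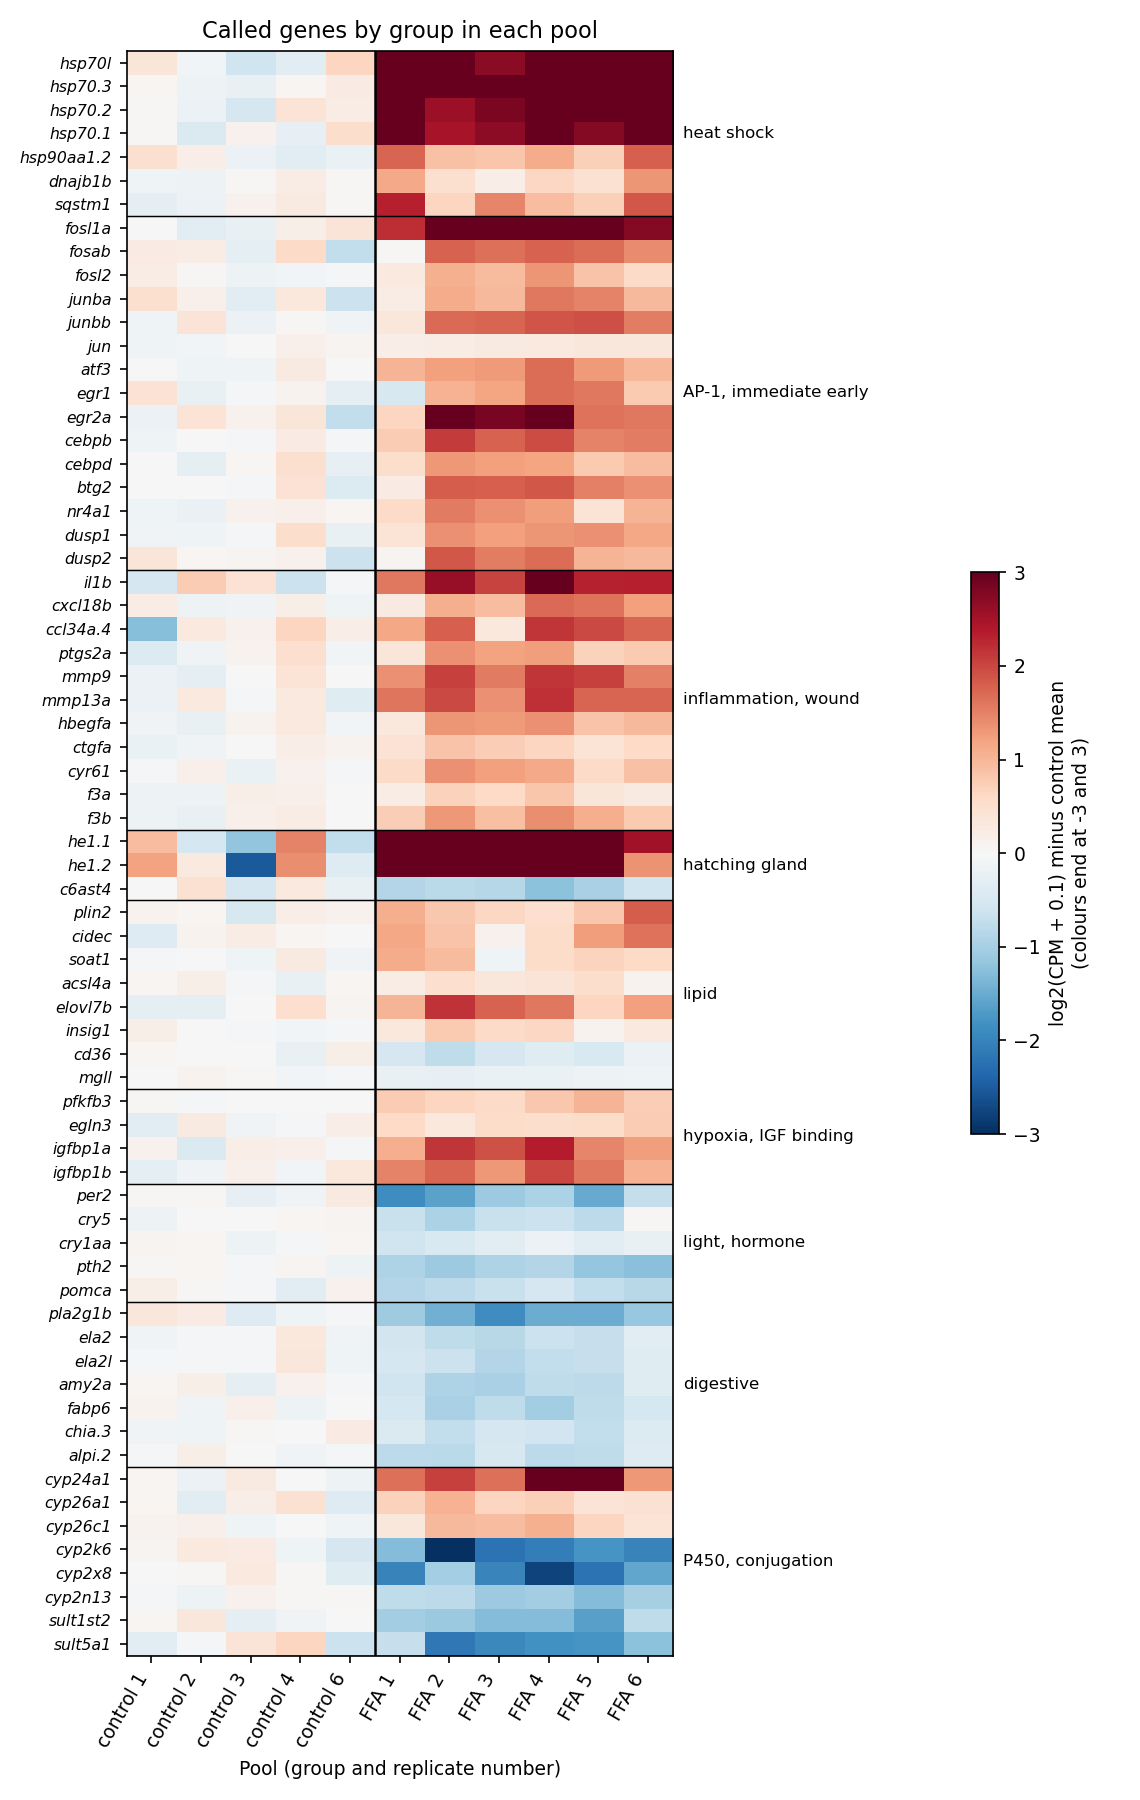
Colour gives the level of selected called genes in each pool as log2(CPM + 0.1) minus the mean of the 5 controls, with genes in rows grouped by role and pools in columns. Most of the 246 called genes are not shown. In the immediate early block FFA 1 lies closest to the controls, as in the summed level of that list (2407 CPM against 3261 to 3916 CPM in FFA 2 to 6).

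Of 10 hatching gland genes 2 were called higher and 1 lower, against 1.1% and 0.716% of all genes. The astacin-like proteases he1.1 and he1.2 soften the egg envelope and are made in the hatching gland. Their genes neighbour each other on chromosome 22 of GRCz12tu, and single genes are uncertain where the pair shares reads. The he1.1 level was 1.08, 0.331, 0.174, 1.64 and 0.272 CPM in the controls and 3.43, 11.1 and 17.8 CPM in its lowest, median and highest FFA pools. For he1.2 the controls were at 1.21, 0.596, 0, 1.41 and 0.340 CPM and the corresponding FFA pools at 1.36, 8.84 and 10.6 CPM. FFA 6 was the lowest FFA pool for both genes and lay inside the control range for he1.2 alone. The log2 fold changes were 3.98 ± 0.447 and 3.44 ± 0.510 (adjusted p = 0.000118 and 0.00127). The related protease gene c6ast4 fell instead (-0.92 ± 0.186, adjusted p = 0.0133), a call that ended without controls 1 and 2 (0.0710). The 10 hatching gland genes as a list summed to 940.4 to 1197 CPM in the controls and 910.8 to 1075 CPM in FFA.

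Of 33 exocrine pancreas genes 7 were called lower and 0 higher, against 0.716% and 1.1% of all genes. The median was -0.31, and 2 of 33 were above 0, or 6.06% against 46.8% of all genes. The summed level of the list was 6912 to 9392 CPM in the controls and 5704 to 7505 CPM in FFA, and FFA 6 was the 1 FFA pool within the control range. In glucose the sum was 3817 to 5377 CPM, below every FFA and every control pool, so a lower level than in control was not particular to FFA. The phospholipase gene pla2g1b, which digests dietary phospholipid, was at 11.4, 10.7, 6.89, 8.28 and 8.64 CPM in the controls and at 2.41, 3.24 and 4.23 CPM in its lowest, median and highest FFA pools (-1.44 ± 0.148, adjusted p = 4.46e-05). The elastase gene ela2 was at 355, 377, 367, 475 and 359 CPM in the controls and at 215 to 306 CPM in FFA (-0.63 ± 0.101, adjusted p = 0.00240). The amylase gene amy2a was at 78.8 to 110 CPM in the controls and 49.7 to 75.4 CPM in FFA (-0.74 ± 0.109, adjusted p = 0.00122). None of these 3 genes overlapped between groups, and FFA 6 or FFA 1 was the highest FFA pool for each of them. Without controls 1 and 2 the list again had 7 called lower, with a median of -0.39.

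Of 47 intestine genes 5 were called lower and 1 higher, against 0.716% and 1.1% of all genes, with a median of -0.085. The intestinal alkaline phosphatase gene alpi.2 fell by 0.67 ± 0.114 (adjusted p = 0.00398) and the chitinase gene chia.3 by 0.56 ± 0.106 (adjusted p = 0.00808), both without overlap. The bile acid binding protein gene fabp6 fell by 0.76 ± 0.170 (adjusted p = 0.0266), a call that ended without control 1, 3 or 6 or FFA 2, 3, 4 or 5 (0.0537 to 0.0720). The dicarboxylate transporter gene slc13a2 rose (0.66 ± 0.119, adjusted p = 0.00608). Among 68 liver genes 2 were called lower, the glyoxylate-detoxifying gene agxtb (-0.70 ± 0.0896, adjusted p = 0.000321) and cyp2k6, and 0 were called higher. That is 2.94% called, near the 1.82% of all genes. The hepatic antimicrobial peptide gene leap2, known in mammals also as an antagonist of the ghrelin receptor, was at 16.8 to 24.5 CPM in the controls and 8.32 to 15.3 CPM in FFA (-0.88 ± 0.154, adjusted p = 0.00506). The yolk and yolk syncytial layer list had 1 of 25 called (4.0% against 1.82% of all genes), the cathepsin gene ctsbb (-1.29 ± 0.262, adjusted p = 0.0136). The ctsbb call ended with the replicate number as a block (0.0585).

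**Figure D5:**
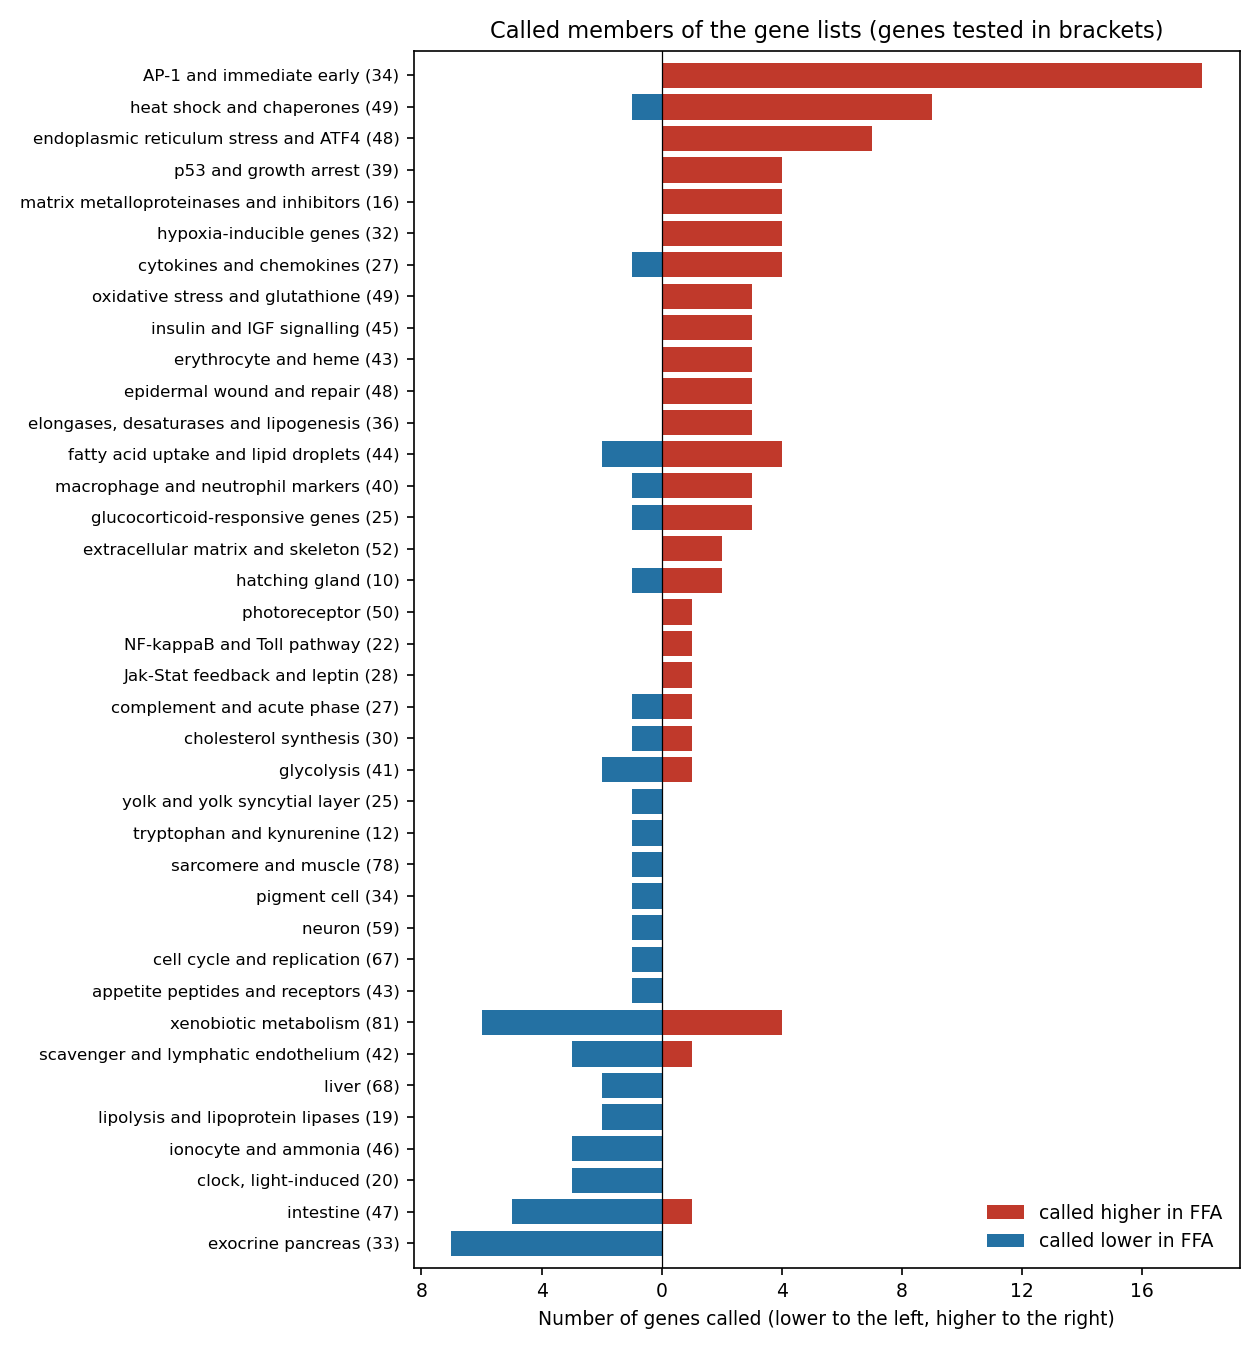
Bars give the number of called members of the 38 gene lists, of 50, that had at least 1, with genes called lower to the left and higher to the right and the number of genes tested in brackets. The AP-1 and immediate early list holds 18 called genes, all higher, and the exocrine pancreas list 7, all lower.

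Of 20 light-induced clock genes per2, cry1aa and cry5 were called lower and 0 higher, against 0.716% and 1.1% of all genes, with 1 called in a fit of control and FFA alone. The period gene per2, switched on by light in zebrafish cells, was at 70.4, 70.6, 58.1, 64.2 and 82.4 CPM in the controls and at 18.8, 28.2 and 41.8 CPM in its lowest, median and highest FFA pools. The groups did not overlap (-1.25 ± 0.155, adjusted p = 0.000292). In the glucose pools per2 was at 164 to 180 CPM, and FFA was lower than glucose by 2.55 on the log2 scale (adjusted p = 1.24e-08). The cryptochrome gene cry1aa fell by 0.34 ± 0.0666 (adjusted p = 0.00981), and by 0.88 against glucose (adjusted p = 1.31e-07). The call against control ended without controls 1 and 2 (0.0659) and with the 2 groups alone (0.0566). The cryptochrome gene cry5 was at 5.39 to 6.26 CPM in the controls and 3.03 to 3.76 CPM in FFA 1 to 5, with FFA 6 at 6.06 CPM (-0.60 ± 0.134, adjusted p = 0.0246). Its call ended without control 2, 3 or 6 or FFA 1, 2, 3, 4 or 5 (0.0523 to 0.0703). The median of the 20 genes was -0.20, and their summed level was 895.3 to 984.3 CPM in the controls, 714.2 to 855.6 CPM in FFA and 1296 to 1330 CPM in glucose, with no overlap between any 2 groups. The hour at which pools were frozen is not known here. The core clock list had 0 of 34 called, where 1.82% of all genes were called, and a median of -0.044.

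Among hormone genes, pth2, a neuropeptide that in zebrafish tracks the presence of other fish through water movement, was at 3.50, 3.51, 3.32, 3.60 and 3.06 CPM in the controls and between 1.36 and 1.81 CPM in all FFA pools (-1.07 ± 0.108, adjusted p = 4.46e-05). The call stood in all 20 alternatives in which the gene was tested, with adjusted p of at most 0.00152. The proopiomelanocortin gene pomca, the source of ACTH and alpha-MSH, was at 10.3 to 14.5 CPM in the controls and 6.94 to 9.04 CPM in FFA (-0.74 ± 0.165, adjusted p = 0.0245). Its call ended without control 1, 2 or 6 or FFA 1 or 2 (0.0557 to 0.0719). Of 43 appetite peptide and receptor genes pomca was the 1 called (2.33% against 1.82% of all genes). The orexigenic genes agrp (-0.15 ± 0.172, adjusted p = 0.932) and npy (-0.15 ± 0.113, adjusted p = 0.867) and the gut peptide gene pyyb (-0.17 ± 0.203, adjusted p = 0.938) were not called. The leptin gene lepb was too low for the main filter. It had 0, 0, 0, 1 and 0 counts in the controls and 1, 4, 1, 11, 12 and 6 counts in FFA 1 to 6, a total of 1 against 35. The ratio scaled to library size was 29.7 (exact 95% counting interval 4.98 to 1200, counting error only), and without the count filter the adjusted p was 0.0257. Most of these counts came from FFA 4, 5 and 6. The orexin gene hcrt had 21 counts in the controls and 18 in FFA. The other leptin gene lepa had 3 and 10 counts and the ghrelin gene ghrl 31 and 49, also under the main filter. The appetite genes cart3 and cck were not found under those symbols.

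Genes that break down vitamins, steroids and foreign compounds changed in both directions. Of 81 xenobiotic metabolism genes 4 were called higher and 6 lower, against 1.1% and 0.716% of all genes. The vitamin D hydroxylase gene cyp24a1, which inactivates active vitamin D, was at 3.37, 2.85, 3.93, 3.28 and 2.93 CPM in the controls and at 8.13, 12.1 and 31.8 CPM in its lowest, median and highest FFA pools (2.41 ± 0.353, adjusted p = 0.00118). FFA 4 and 5 were the high pools and no FFA pool overlapped a control. The retinoic acid hydroxylase gene cyp26c1 rose by 0.75 ± 0.136 (adjusted p = 0.00648) with no overlap. The CYP2 family gene cyp2aa8 was also called higher, with a log2 fold change of 0.82 to 1.06 in the 11 fits without 1 library. Its call ended without controls 1 and 2 (adjusted p = 0.0602). The P450 gene cyp2k6 was at 1.70 to 3.05 CPM in the controls and 0.129 to 0.949 CPM in FFA (-2.22 ± 0.310, adjusted p = 0.000741). The P450 gene cyp2x8 was at 1.57 to 2.53 CPM in the controls and 0.217 to 0.968 CPM in FFA (-1.99 ± 0.241, adjusted p = 0.000245). The more abundant P450 gene cyp2n13 was at 22.0, 20.2, 24.7, 23.2 and 23.3 CPM in the controls and between 9.16 and 13.2 CPM in FFA (-1.0 ± 0.1, adjusted p = 4.46e-05). Sulfotransferase genes sult1st2 (-1.21 ± 0.155, adjusted p = 0.000321) and sult5a1 (-1.61 ± 0.322, adjusted p = 0.0126), whose family conjugates hormones and drugs, fell without overlap. The sult5a1 call ended with the replicate number as a block (0.0583).

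Blood, bone and pigment genes gave a few large single changes. The glycine transporter gene slc25a38a, which supplies heme synthesis, was at 1.82, 2.05, 1.74, 1.88 and 1.5 CPM in the controls and at 3.84 to 9.78 CPM in FFA (1.68 ± 0.251, adjusted p = 0.00131). The tartrate-resistant phosphatase gene acp5a, a marker of osteoclasts and some macrophages, rose by 1.63 ± 0.246 (adjusted p = 0.00139). The purine phosphorylase gene pnp4b, part of the guanine supply of reflecting pigment cells, was at 60.5, 66.8, 86.0, 89.0 and 77.9 CPM in the controls and at 27.0 to 41.9 CPM in FFA (-1.09 ± 0.142, adjusted p = 0.000391). The other 33 pigment cell genes tested were not called, so 2.94% of that list was called against 1.82% of all genes. Most of the list went the other way from pnp4b. The list median was 0.128, and 28 of 34 genes were above 0 (82.4% against 46.8% of all genes). Summed over the list, the level was 2157 to 2806 CPM in the controls and 2606 to 2933 CPM in FFA, which overlap. The ion transporter gene slc12a10.1 fell by 1.02 ± 0.204 (adjusted p = 0.0128).

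No member was called in the lists of ribosomal proteins (79 genes, median 0.015), mitochondrial respiration (85, -0.056), glia (21), osmolyte and polyol metabolism (19) or lens crystallins (44), against 1.82% of all genes. Some of these lists still leaned to 1 side, where 46.8% of all genes were above 0. Of the ribosomal protein genes 65 of 79 were above 0 (82.3%) and of the mitochondrial respiration genes 13 of 85 (15.3%), with medians close to 0. The lens list had a larger median of 0.41, with 41 of 44 genes above 0 (93.2%). Its summed level was 1542 to 3119 CPM in the controls and 2242 to 3750 CPM in FFA, which overlap. Photoreceptor genes had 1 of 50 called and neuron genes 1 of 59, while sarcomere and muscle genes had 1 of 78 and cell cycle genes 1 of 67, the polymerase gene pole (-0.30 ± 0.0520, adjusted p = 0.00430). These shares lie near the 1.82% called of all genes. The medians of 2 of these lists depended on controls 1 and 2. Without them the photoreceptor median went from -0.082 to 1.066 and the neuron median from -0.075 to 0.357, with 0 genes called in either list.

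The pools within FFA differed in level over the called genes. Over the 149 genes called higher, FFA 1 was the lowest FFA pool for 53 genes, FFA 2 the highest for 49 and FFA 4 the highest for 43. Over the 97 genes called lower, FFA 6 was the highest FFA pool, nearest to the controls, for 38. Among controls, control 4 was the highest for 76 of the 149 and for 41 of the 97. The same counts were not taken over all genes tested, so they do not show which pools responded more. The pools with the most hsp70.3, FFA 1 and 6, also had the least photoreceptor RNA of the 6 FFA pools (3361 and 3352 CPM against 5701 to 8010 CPM). They also had less of the summed neuron list (4779 and 4887 CPM against 6122 to 7356 CPM). FFA 4, also a high pool for hsp70l, did not share this, with 7232 CPM for photoreceptor and 7356 CPM for neuron genes. A part of tissue makeup in the order of the pools was not tested.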

How the data were processed

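RNA of 17 pools was measured. Stranded mRNA libraries were pooled and sequenced in paired ends of 75 bp, per the labels' protocols. The deposited files hold raw counts made by the authors, with 15316 genes and 2 lines naming no gene in each. STAR, DESeq2 and danRer7 are named in the submitters' processing notes, without version or role, so what each did is unknown. For the counter, the annotation and reads matching several genes nothing is given in the sources used here, and genes of close families (hsp70, he1) are uncertain as single genes. Assembly GRCz12tu was used for gene names and neighbours only.

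The line of counts outside genes held 29.9 to 36.59% of counts in control and 31.07 to 35.79% in FFA. These were left out of library sizes. Replicate pairs differed by more than sampling noise, so none was counted as a duplicate. Genes passing filterByExpr (minimum count 10) were tested with edgeR 4.0.16 (R 4.3.3), TMM scaling and the quasi-likelihood F-test in 1 fit of all 17 libraries with a mean per group. CPM values (TMM-scaled) are this work's own, from those counts. SE is the absolute log2 fold change over the square root of F.

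The named genes were the 15 largest rises and 15 largest falls among called genes with at least 1 CPM, no overlap and a gene name, up to 4 called members of each list by smallest p, and a panel of lipid and appetite genes. Other called genes named in the text were chosen after their values were seen. The members and lists were chosen with earlier results of these data known. The procedure was tested on simulated counts. The fits were repeated with a floor of 5 CPM on the mean, without a count filter, with RLE or plain library size scaling, for the 2 groups alone, with DESeq2 1.42.0, or limma-voom (limma 3.58.1), with the replicate number as a block, with the share of counts outside genes as a covariate, without controls 1 and 2, without each library and by treatment tag. One result is not reported here. No sequence was analysed here.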

Additional observations from a re-analysis of the deposited data

Results flagged for a closer look

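Single pools far from the others of their group, by Dixon's criterion, were found in 20 of the 224 gene and group combinations of the named genes, where chance marks about 1 in 20. All values are CPM.

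In control 4, ctss2.1 (10.8), sgk1 (147), dusp1 (130), ela2 (475), ela2l (398) and pdk2b (127) lay far above the other controls, and cpt1aa (45.9) lay far below them. In control 3, ugt5a3 lay high at 2.97 and plin2 low at 6.37, and in control 1 insig1 lay high at 43.4.

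In FFA 1, slc25a38a lay high at 9.78, while dusp1 (120) and cebpa (92.2) lay low. In FFA 2, mcl1a (130), phgdh (122) and apobb.1 (9030) lay high. In FFA 4, atf3 lay high at 80.2. In FFA 6, plin2 (31.7) and cry5 (6.06) lay high and he1.2 (1.36) low.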

How the results depend on the processing

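For FFA against control, the 246 calls became 162 in a fit of the 2 groups alone (59 lower), 649 with the share outside genes as a covariate (362 higher, 287 lower) and 382 with DESeq2 (163 lower). Without controls 1 and 2 there were 93 higher. At a mean of at least 5 CPM, 45 genes were called at least 2-fold. Grouped by the treatment tag, 1 gene was called for tag FFA against tag control (0 at least 2-fold) and 106 for tag glucose against tag control (43). FFA against glucose had 3978 calls with the covariate against 2299. Without 1 library in turn, calls ran from 157 to 254 (97 to 183 higher, 52 to 95 lower, 54 to 75 at least 2-fold), and FFA against glucose from 1654 to 2561. The cause was not tested.

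The replicate number as a block gave 118 calls (76 higher, 42 lower). Whether equal numbers mark pools of a shared origin is not known here. The correlations of the 5 pairs ran from -0.566 to 0.226, 2 were above 0.1, and 0 FFA libraries correlated best with their own number. They were taken over all genes, where other differences between pools can hide a shared origin, so they do not decide it. Of 94 called named genes, 51 kept their call under all alternatives run on them, 67 in all 11 fits without 1 library, and 0 reversed. Calls were lost by 23 of them with the 2 groups alone, 26 without controls 1 and 2 and 32 under the block.

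Uncalled genes changed sign on the log2 scale: srebf1 (0.074) and apobb.1 (-0.075) without controls 1 and 2, and, without 1 library, hmgcs1 (-0.183 to 0.03), ldlra (-0.002 to 0.071), apobb.1 (-0.009 to 0.105), dgat2 (-0.144 to 0.014) and ins (-0.101 to 0.044). Depth limits genes such as lepb, and p-values measure the spread of these pools alone.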
